A study of Mus musculus with 2 samples.

Results

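The expression of 8 genes of ADP-ribosylation was described in immune cells of mouse gliomas: Parp9, its partner Dtx3l, Parp14, Parp10, Parp12, Parp11, Parp8 and, as the contrast, Parp1. They were taken by name from the 31253 genes of the count matrices, and all 8 were found; the list was drawn up with earlier results of these data known. Living CD45.2+ CD45.1- cells, the host's own immune cells by their label, were sorted from tumours given phosphate-buffered saline (PBS) or EM and sequenced with the BD Rhapsody system, in which barcoded beads capture the RNA of single cells in microwells. There was 1 PBS library and 1 EM library, the latter titled 72 h, and no time is given for the former. The labels do not give the glioma line, the strain, age or sex of the mice, what EM stands for or the number of animals in a library. With 1 library per group there was no replicate check and no test. Every interval below is a 95% interval for counting error only, and a difference between EM and PBS is a difference between these 2 libraries.

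ADP-ribosyltransferases move ADP-ribose from NAD+ onto proteins. Parp1, the best known of them, binds broken DNA in the nucleus and builds poly(ADP-ribose) chains that recruit repair factors. Parp10, Parp11, Parp12 and Parp14 attach single ADP-ribose units, and several members of the family are known as interferon-stimulated genes with roles in antiviral defence. Parp9 pairs with Dtx3l, a ubiquitin ligase, and Parp8 is a little-studied member that is not usually counted among the interferon-stimulated ones.

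In the GENCODE annotation of GRCm38 (the assembly also called mm10), 3 of the members lie side by side on chromosome 16. Parp9 (ENSMUSG00000022906) runs on the plus strand from 35938470 to 35972605, and Dtx3l (ENSMUSG00000049502) on the minus strand from 35926511 to 35939151, so that the 5′ ends of both genes overlap by 682 bases, exons included. Parp14 (ENSMUSG00000034422) lies on the minus strand from 35832874 to 35871544. Parp12 (ENSMUSG00000038507, minus strand, 39086410 to 39118349) and Parp11 (ENSMUSG00000037997, plus strand, 127446840 to 127494261) are both on chromosome 6. Parp10 (ENSMUSG00000063268) is on chromosome 15, minus strand, from 76231174 to 76243441, and its exons overlap those of Plec on the same strand, over a shared stretch of 1401 bases, so Parp10 counts are uncertain to the extent that reads from that stretch were shared out. Parp8 (ENSMUSG00000021725) is on chromosome 13, minus strand, from 116854820 to 117025537, and Parp1 (ENSMUSG00000026496) on chromosome 1, plus strand, from 180568924 to 180601254. Levels below are counts of UMIs (unique molecular identifiers, 1 per captured RNA molecule) scaled to the total UMIs of a cell class (counts per 1e6, CPM). They are compared for 1 gene across cells, and not between genes. Where a pair of values is given for a gene, PBS comes first and EM second.

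Promoter sequences of RefSeq (build GRCm38.p6, from 250 bases before the start site) were matched by symbol for 5 of the 8 members, namely Dtx3l, Parp12, Parp11, Parp8 and Parp1, with 2 start sites for Parp11. They were searched on both strands for the core of the interferon-stimulated response element (GAAA, any 2 letters, GAAA), bound by the interferon-activated complex ISGF3 and by IRF factors, and for the gamma-activated site (TTC, any 3 letters, GAA), a second interferon-linked element. Each search window also held the first 50 bases after the start. The response element core was found in 3.44% of 32851 promoters and the gamma-activated site in 8.30%. Of the 6 windows, the upstream start of Parp11 held a match to each, beginning 44 and 37 bases before the start site, and these matches overlap. The other 5 windows held neither string, which says only that those letters are not in those windows. The upstream 250 bases are shown for Parp11 (upstream start) and Parp12, the pair with the highest ratios in T cells below, and for Parp1, the contrast, with matched letters in capitals.
Parp11, chr6:127446590-127446839, plus strand: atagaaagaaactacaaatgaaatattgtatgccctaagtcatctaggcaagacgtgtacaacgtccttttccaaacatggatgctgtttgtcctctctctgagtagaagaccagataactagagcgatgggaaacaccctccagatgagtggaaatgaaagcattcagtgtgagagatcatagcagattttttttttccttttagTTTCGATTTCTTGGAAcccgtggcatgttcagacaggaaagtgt
Parp12, chr6:39118350-39118599, minus strand: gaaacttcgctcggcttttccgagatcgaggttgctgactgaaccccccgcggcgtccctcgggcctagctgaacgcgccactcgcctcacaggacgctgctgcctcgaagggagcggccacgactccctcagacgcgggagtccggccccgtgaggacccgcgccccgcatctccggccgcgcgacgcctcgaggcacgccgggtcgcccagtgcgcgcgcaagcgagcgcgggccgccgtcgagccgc
Parp1, chr1:180568641-180568890, plus strand: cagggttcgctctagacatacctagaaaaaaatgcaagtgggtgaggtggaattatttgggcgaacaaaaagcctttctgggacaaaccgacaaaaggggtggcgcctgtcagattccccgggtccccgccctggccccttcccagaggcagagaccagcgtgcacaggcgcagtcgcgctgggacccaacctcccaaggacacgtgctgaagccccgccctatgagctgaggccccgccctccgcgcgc

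The PBS library held 7756 cells after filtering (median 4303 UMIs) and the EM library 7967 (median 2016 UMIs). Cells were put into classes by marker genes, and 12.8% of PBS cells and 10.6% of EM cells fitted none. The comparison took the classes that held 100 or more cells on each side: T (4062 PBS and 5148 EM cells), NK (215 and 493), monocyte/macrophage (1486 and 386), microglia (172 and 308) and dendritic cells (107 and 323). Neutrophils (630 cells) were measured in PBS only, and plasmacytoid dendritic cells (189) and basophil/mast cells (161) in EM only. Sex-linked RNA also set the libraries apart (Xist 10.6 and 384 CPM, Y-linked Ddx3y 192 and 4.46 CPM, PBS before EM), so the sex of the mice and the treatment cannot be told apart. They shared 62 cell barcodes among the cells kept.

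T cells gave the deepest counts, and most members were higher there in EM. Dtx3l went from 139 CPM (3000 UMIs, PBS) to 297 CPM (3815 UMIs, EM), a log2 ratio of 1.09 (1.02 to 1.16). Parp9 stood at 92.1 and 174 CPM (log2 ratio 0.92, 0.83 to 1.01), and Parp14, a macrodomain protein first described as a partner of STAT6, at 93.5 and 180 CPM (0.95, 0.86 to 1.03). In T cells the ratios of these 3 neighbours on chromosome 16 thus lay from 0.92 to 1.09, with the interval of Parp9 below that of Dtx3l. They lay further apart in the other compared classes, as in microglia (Parp9 0.41, Dtx3l 0.47 and Parp14 -1.01).

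Parp12 and Parp11 had low levels in T cells of the PBS library and the highest ratios. Parp12, a zinc-finger member that restricts RNA viruses, went from 8.93 to 32.7 CPM (log2 ratio 1.87, 1.62 to 2.12). Parp11, a mono-ADP-ribosyltransferase of the nuclear envelope, went from 8.32 to 25.2 CPM (1.60, 1.33 to 1.87). Parp10 was at 26.0 and 37.6 CPM (0.53, 0.35 to 0.71). Parp8 was level, at 37.5 and 37.1 CPM (-0.02, -0.18 to 0.15), and Parp1 was at 36.7 and 51.3 CPM (0.48, 0.33 to 0.63). The interval of Parp10 overlapped that of Parp1, whereas those of Parp9, Dtx3l, Parp14, Parp12 and Parp11 lay above it.

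A gene was counted as higher or lower in EM where the log2 ratio passed 1 on at least 20 UMIs. In T cells 3 of the 7 members other than Parp1 were higher (Dtx3l, Parp12 and Parp11) and 0 lower, where 5.15% of all 13106 genes measured were higher and 11.5% lower. Parp9 and Parp14 lay just under the limit: with counts scaled by the median ratio over genes, or with every cell thinned to 1000 UMIs, 5 members were higher. The share of all genes past the limit is not given for these settings. The members' median log2 ratio was 0.95 and that of all genes -0.12.

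**Figure D1:**
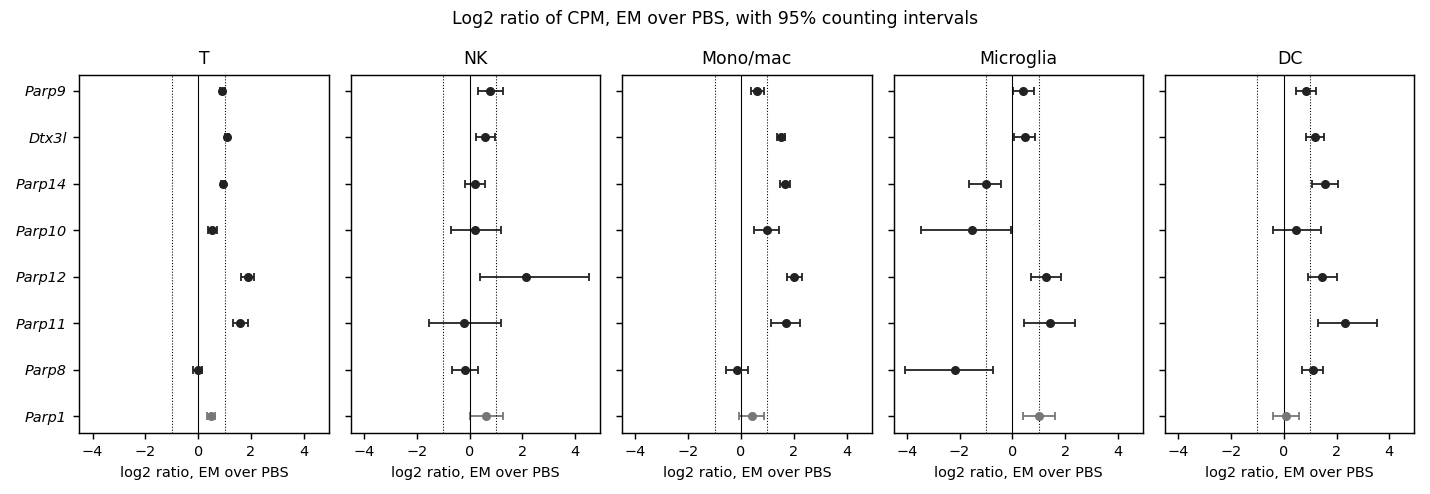
Log2 ratio of CPM in EM over PBS for each gene (rows) in 5 cell classes (panels), with 95% counting intervals; solid lines mark equality, dotted lines a log2 ratio of 1 in either direction, and Parp1 is in grey. In T cells Parp12 is at 1.87 and Parp8 at -0.02, and in microglia Parp14, Parp10 and Parp8 lie to the left of equality.

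The share of cells with at least 1 UMI hid the T cell difference before depth was made equal. For Dtx3l it was 43.0% in PBS and 43.0% in EM, in cells of median 4451 and 2091 UMIs. After thinning to 1000 UMIs, with 45 PBS and 138 EM cells left out as too shallow, it was 12.8% (11.8 to 13.9%) and 23.9% (22.7 to 25.1%). Parp9 went from 8.59% to 16.2% of thinned T cells (unthinned 32.3% and 30.5%), Parp14 from 9.06% to 16.9% (31.2% and 31.3%) and Parp12 from 0.822% to 3.19% (4.14% and 7.26%). Parp1 was found in 3.04% and 4.27% of thinned T cells (14.6% and 10.5% unthinned). No class here is known to lack these genes. The lowest thinned share among neutrophils was that of Parp1 and Parp11, each in 2 of 555 cells (0.360%).

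Within T cells, 3 subsets were set by single genes: cells with Cd8a or Cd8b1 and no Cd4 or Foxp3 (3162 PBS and 2637 EM cells), cells with Cd4 and neither CD8 gene nor Foxp3 (458 and 1051), and cells with Foxp3, the regulator of regulatory T cells, and no CD8 gene (129 and 642). Most members were higher in EM in each subset, but so was Parp1. Its log2 ratio was 0.37 (0.17 to 0.56) in Cd8+ cells, 0.68 (0.22 to 1.14) in Cd4+ cells and 0.70 (0.04 to 1.42) in Foxp3+ cells. Parp9 was at 0.69 in Cd4+ cells, and in Foxp3+ cells Parp9 and Dtx3l were each at 0.73, close to Parp1. The intervals of Parp14, Parp10 and Parp8 held 0 in Foxp3+ cells. Dtx3l was at 135 and 292 CPM in Cd8+ cells, 145 and 293 CPM in Cd4+ cells and 206 and 342 CPM in Foxp3+ cells. The intervals of Dtx3l in Foxp3+ cells lay above those in Cd8+ cells in both libraries. Parp12 was at 8.14 and 28.9 CPM in Cd8+ cells, 11.6 and 32.7 CPM in Cd4+ cells and, from 8 PBS UMIs, 13.5 and 40.6 CPM in Foxp3+ cells. Counted past a log2 ratio of 1, 2 of the 7 members were higher in Cd8+ cells (background 3.99%), 4 in Cd4+ cells (4.60%) and 2 in Foxp3+ cells (6.74%), and 0 were lower (13.9%, 7.23% and 6.15% of all genes).

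Parp11 and Parp8 also differed between subsets beyond counting error. In EM, Parp11 was at 16.3 CPM (13.4 to 19.6) in Cd8+ cells but 33.1 CPM (26.2 to 41.3) in Cd4+ and 35.7 CPM (27.1 to 46.2) in Foxp3+ cells. In PBS the 3 subsets were at 8.26, 9.07 and 13.5 CPM with overlapping intervals. Parp8 was low in Foxp3+ cells of both libraries: 8.46 CPM (2.75 to 19.7, 5 UMIs) in PBS and 14.2 CPM (8.98 to 21.3, 23 UMIs) in EM. In Cd4+ cells it was at 53.9 CPM (44.2 to 65.1) and 39.4 CPM (31.8 to 48.2), and in Cd8+ cells at 35.8 and 39.0 CPM. The Foxp3+ intervals for Parp8 lay below those of the other subsets in each library. Foxp3+ cells made up more of the EM library (8.06% of cells) than of the PBS library (1.66%).

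**Figure D2:**
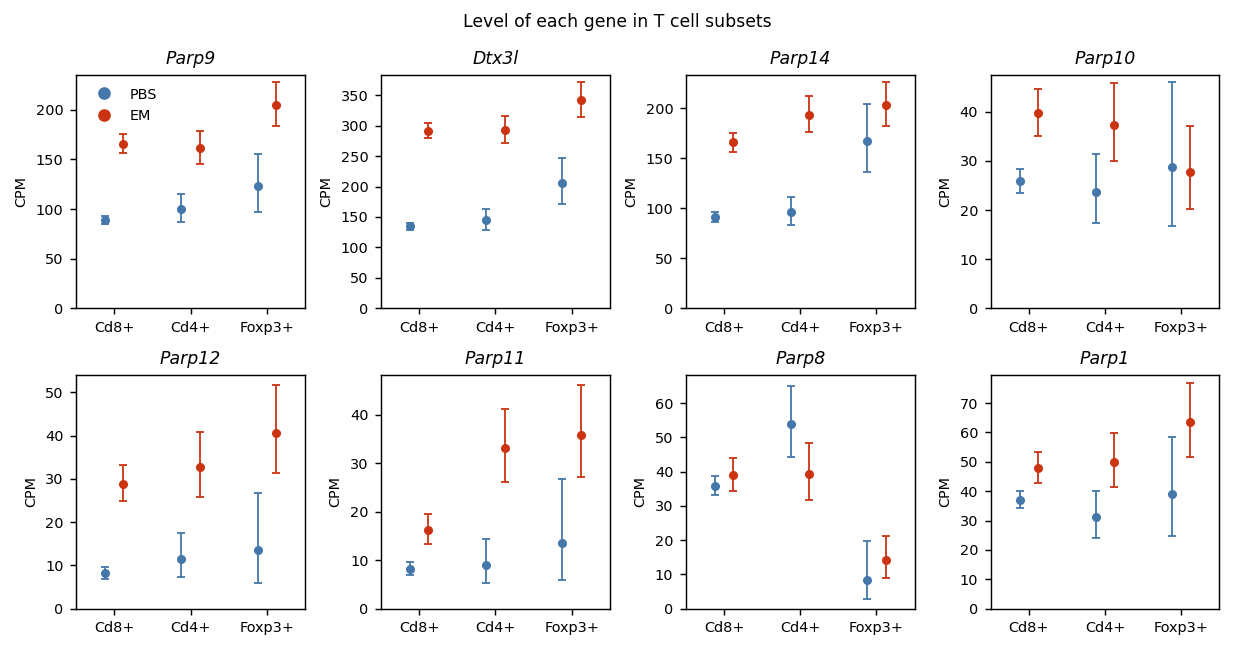
CPM of each gene in T cells with Cd8a or Cd8b1, with Cd4 and with Foxp3, in the PBS (blue) and EM (red) library; bars are 95% Poisson intervals. Parp8 is lowest in Foxp3+ cells in both libraries, at 8.46 and 14.2 CPM.

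NK cells, cytotoxic lymphocytes that act without a T cell receptor, had smaller ratios for most members. Parp9 was at 69.6 and 120 CPM (log2 ratio 0.78, 0.33 to 1.25) and Dtx3l at 116 and 175 CPM (0.58, 0.23 to 0.95). Parp14 was at 111 and 128 CPM (0.20, -0.18 to 0.59), and the intervals of Parp10, Parp11 and Parp8 also held 0. Parp1 was at 40.5 and 63.0 CPM (0.64, 0.03 to 1.27). Its ratio was above those of Dtx3l, Parp14, Parp10, Parp11 and Parp8, with overlapping intervals. Parp12 had a log2 ratio of 2.14, but from 3 UMIs in PBS and 22 in EM (0.40 to 4.52). It was the 1 member of 7 past the limit, against a background of 5.34% higher, and 0 were lower (8.11%). That count was 0 with a marker lead of 2, with thinned cells, without the 5% of cells with the most UMIs, or with at least 50 UMIs required. The members' median was 0.22 and that of all genes -0.09. The summed T cell markers in NK cells came to 9.27% (PBS) and 10.99% (EM) of the sum in T cells.

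In the monocyte/macrophage class 4 of 7 members were higher in EM (background 8.41%) and 0 lower (background 25.0%). Parp12 went from 35.8 to 146 CPM (525 and 124 UMIs, log2 ratio 2.03, 1.73 to 2.31). Parp14 went from 107 to 340 CPM (1.66, 1.48 to 1.84), Dtx3l from 148 to 426 CPM (1.52, 1.36 to 1.68) and Parp11 from 11.9 to 38.8 CPM (1.70, 1.12 to 2.25). Their intervals lay above 1 in each case.

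Parp10 lay at the limit, with 24.8 and 49.4 CPM (0.99, 0.50 to 1.46). Parp9 was at 112 and 173 CPM (0.62, 0.37 to 0.87), so that its interval lay below that of its partner Dtx3l here. Parp8 was at 70.1 and 63.5 CPM (-0.14, -0.57 to 0.25) and Parp1 at 35.2 and 47.0 CPM (0.42, -0.08 to 0.88). The members' median was 1.52 and that of all genes -0.27. In thinned cells (1454 PBS and 260 EM cells, with 32 and 126 too shallow), Parp12 was found in 3.09% and 13.1%, Parp14 in 10.8% and 25.0%, and Dtx3l in 13.4% and 31.5%. Unthinned, these shares were 26.5% and 21.2%, 49.4% and 37.0%, and 61.6% and 45.6%.

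The class did not hold the same cells in the 2 libraries. Mrc1, the mannose receptor of tissue macrophages, was at 1180 and 142 CPM, and Arg1, the arginase of alternatively activated macrophages, at 1098 and 149 CPM. The inflammatory monocyte genes Ly6c2 (203 and 3528 CPM) and Ccr2 (168 and 789 CPM) went the other way. In cells thinned to 1000 UMIs, Mrc1 was found in 48.9% and 11.9% and Arg1 in 41.0% and 6.92%. Ly6c2 was found in 11.3% and 60.0% of them and Ccr2 in 14.2% and 41.5%. The median cell held 9561 UMIs in PBS and 1495 in EM, and 16.8% and 42.0% of cells lay near the gate. The members were therefore also measured in cells with Ccr2 and no Mrc1 (216 PBS and 157 EM cells) and in cells with Mrc1 (1150 and 77). Both genes were scored in unthinned cells, so a missing UMI says less in the shallower EM cells. The Ccr2 and Mrc1 cells were 14.5% and 77.4% of the class in PBS but 40.7% and 19.9% in EM, and the rest fell on neither side.

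Among Ccr2 cells, Parp12 was at 40.3 and 167 CPM (log2 ratio 2.05), Parp11 at 12.2 and 38.3 CPM (1.65), Parp14 at 159 and 432 CPM (1.44) and Dtx3l at 187 and 472 CPM (1.33). Parp1 was at 35.3 and 28.2 CPM there (-0.32, -1.29 to 0.56). Among Mrc1 cells, the log2 ratios were 1.31 for Parp12, 1.05 for Dtx3l, 0.98 for Parp14 and, from 7 EM UMIs, 2.08 for Parp11. Parp1 was at 35.9 and 100 CPM (1.49, 0.60 to 2.25, with 14 UMIs in EM). The higher levels of Parp12, Dtx3l, Parp14 and Parp11 in EM were thus present on both sides of that split, and Parp1 differed in sign between them. The 8 T cell markers, all found in each library, summed to 1.02% (PBS) and 4.14% (EM) of the sum in T cells. With T cell RNA subtracted in that proportion 4 members passed the limit, where the median of all genes was -0.35. The share of all genes past the limit is not given for that setting.

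Dendritic cells, the antigen-presenting cells that prime T cells, had 5 of 7 members higher in EM (background 6.77%) and 0 lower (9.11%). Parp11 went from 9.34 to 46.5 CPM (9 and 54 UMIs, log2 ratio 2.32, 1.29 to 3.52). Parp14 went from 47.7 to 140 CPM (1.56, 1.08 to 2.06), Parp12 from 39.4 to 108 CPM (1.45, 0.92 to 2.01) and Dtx3l from 104 to 234 CPM (1.18, 0.84 to 1.52). The count was 3 with thinned cells, where Parp8 was at 0.996 and Parp11 had too few UMIs, and 3 with equal weight per cell, where Dtx3l was at 0.993 and Parp8 at 0.992. Parp9 was at 94.4 and 169 CPM (0.84, 0.47 to 1.21) and Parp10 at 18.7 and 25.8 CPM (0.47, -0.42 to 1.40). Parp1 was level, at 64.3 and 68.1 CPM (0.08, -0.42 to 0.59). The members' median was 1.18 and that of all genes -0.05.

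Parp8 was higher in EM in dendritic cells, at 74.7 and 159 CPM (1.09, 0.69 to 1.51). The make-up of the class also differed. Cells led by the markers of type 1 conventional dendritic cells, which cross-present antigen, made up 66.4% of the class in PBS (71 cells) and 53.9% in EM (174). Those led by markers of migratory dendritic cells made up 17.8% (19 cells) and 28.8% (93). In the type 1 cells alone Parp8 was at 93.8 and 168 CPM (0.84, 0.39 to 1.31), Parp11 at 12.1 and 47.1 CPM (1.96) and Parp14 at 33.3 and 108 CPM (1.70). Of the members, 4 passed the limit there, where the median of all genes was -0.08. The share of all genes past the limit is not given for the type 1 cells. The T cell markers summed to 0.873% (PBS, 7 of 8 found) and 3.38% (EM, 8 of 8) of the sum in T cells. Migratory cells had Parp8 at 53.6 CPM (23.2 to 106, 8 UMIs) in PBS and 171 CPM (121 to 235) in EM. Parp8 was thus higher in EM in both the type 1 and the migratory cells, and the part of make-up was not tested. In EM, plasmacytoid dendritic cells, the specialised interferon producers, had Parp8 at 165 CPM (134 to 200).

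Microglia, the brain's own macrophages, were the class in which members went in opposite directions. Parp12 was at 45.3 and 109 CPM (log2 ratio 1.27, 0.69 to 1.83) and Parp11 at 15.1 and 40.7 CPM (1.43, 0.42 to 2.39). Parp9 was at 135 and 180 CPM (0.41, 0.01 to 0.81) and Dtx3l at 127 and 175 CPM (0.47, 0.05 to 0.87). Parp14 was lower in EM, at 143 and 71.1 CPM (-1.01, -1.63 to -0.44), as were Parp10 at 29.0 and 10.2 CPM (-1.51, -3.45 to -0.06) and Parp8 at 45.3 and 10.2 CPM (-2.16, -4.07 to -0.74), the last 2 on 4 EM UMIs each. Parp1 was at 45.3 and 91.5 CPM (1.01, 0.40 to 1.60).

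Of the 7 members, 2 were higher in microglia (background 7.71%) and 3 lower (background 26.5%), so that the lower count is read against a large share of all genes. The members' median was 0.41 and that of all genes -0.25. Without the 5% of cells with the most UMIs, or with equal weight per cell, Parp12 was at 0.90 and 0.91 and 1 member was higher. Parp14 passed the limit narrowly: with cells limited to 1000 or more UMIs and 10% or less mitochondrial RNA it was at -0.70 and Parp10 at -0.56, and with the median-ratio scaling Parp14 was at -0.76. The median EM microglial cell held 926 UMIs against 8163 in PBS. The leading genes of the PBS cells included Col6a3 and Fgb, neither on a marker list used here, beside Siglech and Sall1. The 8 T cell markers, all found in each library, summed to 0.967% (PBS) and 5.20% (EM) of the sum in T cells. The part of these differences in the result was not tested beyond the alternatives given.

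The levels of each gene over all classes are shown in the plot of CPM by class. In the PBS library, neutrophils, short-lived phagocytes of acute inflammation, had the highest Parp10 level, 116 CPM (97.0 to 138), with an interval above that of every other PBS class. Their Parp14 level, 296 CPM (265 to 330), lay above the intervals of the other PBS classes except B cells, which rest on 18 UMIs. Parp9 was at 180 CPM (156 to 207) and Dtx3l at 226 CPM (199 to 255) in neutrophils, and the interval of Dtx3l lay above those of the other PBS classes, T cells taken as a whole. Parp1, in contrast, had 5 UMIs in 630 neutrophils (4.46 CPM, 1.45 to 10.4) and Parp11 had 4 (3.57 CPM, 0.97 to 9.14). The Parp1 interval in neutrophils lay below those of the other classes, while that of Parp11 overlapped the intervals of several. No EM cell met the neutrophil gate, so no ratio was formed.

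In the EM library, Dtx3l and Parp14 were highest in the monocyte/macrophage class, at 426 CPM (383 to 472) and 340 CPM (302 to 381), above the intervals of all other EM classes. Parp12 was highest in 3 classes whose intervals overlapped: monocyte/macrophage (146 CPM), microglia (109 CPM) and dendritic cells (108 CPM). It was low in plasmacytoid dendritic cells (14.7 CPM, 9 UMIs) and NK cells (16.7 CPM). Parp8 was highest in dendritic cells (159 CPM) and plasmacytoid dendritic cells (165 CPM), which did not differ beyond counting error. Parp1 was highest in B cells, at 134 CPM in PBS (14 UMIs) and 115 CPM in EM (26 UMIs), with the EM interval (74.9 to 168) overlapping those of microglia, NK, Foxp3+ T, dendritic and plasmacytoid dendritic cells, and the PBS interval (73.2 to 225) that of dendritic cells.

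**Figure D3:**
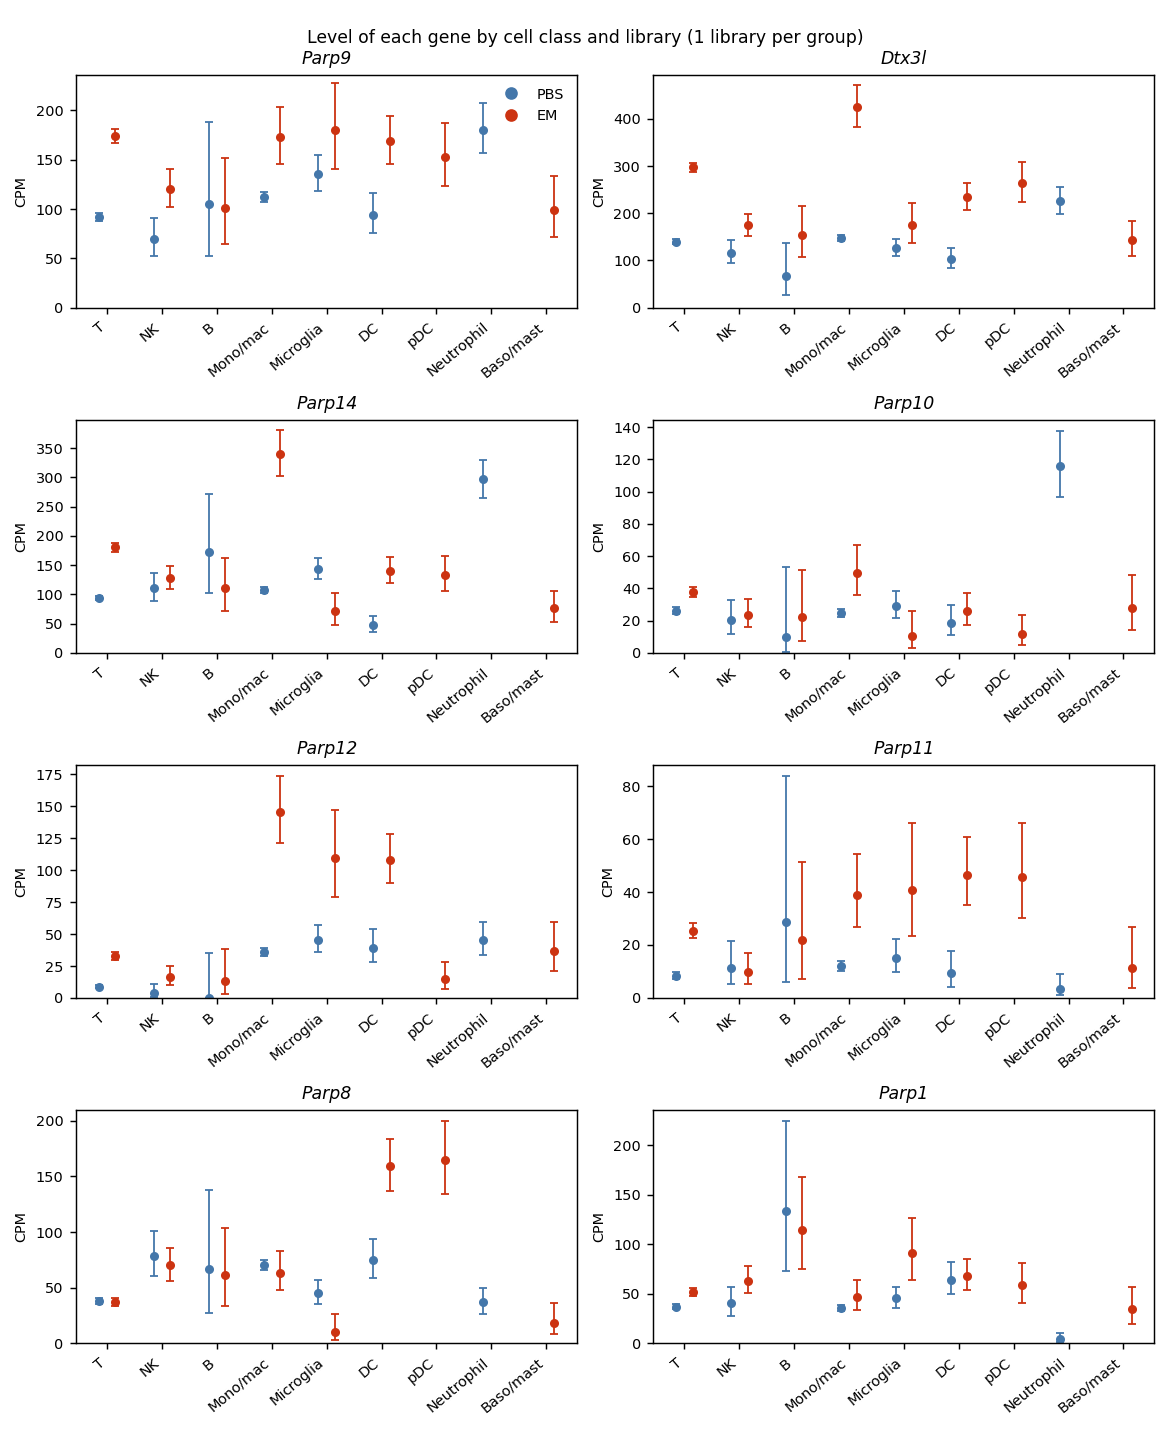
CPM of each gene by cell class in the PBS (blue) and EM (red) library, with 95% Poisson intervals; classes are shown where a library held at least 50 of their cells. Neutrophils (PBS only) are high for Parp14 (296 CPM) and Parp10 (116 CPM) and low for Parp1 (4.46 CPM).

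Cells of 1 library were then compared by their interferon response. In cells thinned to 1000 UMIs, those with at least 3 detected genes of a list of type I interferon response genes (among them Isg15, Ifit1 and Irf7) were set against cells with none. A member was counted as more often found where its share was at least 1.5 times higher, with at least 20 positive cells. In T cells of the PBS library 272 cells had at least 3 such genes and 1775 had 0. Dtx3l was found in 27.2% (22.0 to 32.9%) of the former and 9.80% (8.46 to 11.3%) of the latter, Parp14 in 20.2% and 7.04%, Parp9 in 18.8% and 6.37%, and Parp12 in 2.57% and 0.732%. Parp1 was found in 3.68% (1.78 to 6.66%) and 3.38% (2.59 to 4.33%), and Parp8 in 1.84% and 3.66%. Unthinned, in cells of median 4138 and 4730 UMIs, the Dtx3l shares were 64.3% and 39.8% and the Parp1 shares 10.3% and 16.6%.

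In the EM library, T cells with interferon genes also held Dtx3l, Parp9, Parp14 and Parp12 more often. With 2423 cells of at least 3 interferon genes and 593 of 0, Dtx3l was found in 30.5% and 14.8%, Parp9 in 21.4% and 8.60%, Parp14 in 22.5% and 12.3%, and Parp12 in 5.08% (4.24 to 6.03%) and 0.843% (0.274 to 1.96%). Parp11 was found in 3.38% and 1.18%, Parp8 in 3.43% and 2.36% and Parp1 in 3.59% and 4.05%. Of the members other than Parp1 with enough positive cells, 5 of 6 were more often found in interferon-responding T cells in PBS (background 11.5% of genes) and 6 of 7 in EM (background 10.1%). Parp8 was the 1 exception in each at this depth, but with cells thinned to 500 UMIs its share ratio was 1.58 in PBS, past the limit, and 1.10 in EM. By subset, 4 of 5 were in Cd8+ cells of PBS (background 12.6%) and 7 of 7 in EM (13.7%), Parp8 included there, at 3.55% (2.59 to 4.74%) and 1.99% (0.733 to 4.27%). Those intervals overlap, the unthinned shares were 8.80% and 8.61%, and at 500 UMIs the Parp8 ratio was 1.14, under the limit. In Cd4+ cells 2 of 2 were in PBS (13.5%) and 6 of 6 in EM (15.4%), and in Foxp3+ cells of EM 3 of 3 (21.8%). At 500 UMIs, Dtx3l (1.87) was past the limit in the Foxp3+ cells, while Parp9 (1.21) and Parp14 (1.49) were not.

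Neutrophils of the PBS library also differed by interferon response. Among 334 cells with at least 3 interferon genes and 66 with 0, Parp14 was found in 27.8% (23.1 to 33.0%) and 3.03% (0.369 to 10.5%), Dtx3l in 24.0% and 4.55%, Parp9 in 23.7% and 3.03% and Parp10 in 11.7% and 1.52%. Unthinned, in cells of median 1702.5 and 1744 UMIs, the Parp14 shares were 38.6% and 13.6%. All 5 members with enough cells were more often found, where 19.3% of genes were. In the monocyte/macrophage class of PBS, 3 of 5 were (background 11.1%), with Parp14 at 28.9% and 6.15% and Parp12 at 6.37% and 2.38%, while Dtx3l was at 18.6% and 12.5%, just under the limit, which it passed at 500 UMIs (ratio 4.34). In NK cells of EM 3 of 3 were (background 11.5%), and in dendritic cells of EM 1 of 4 (background 25.8%), namely Dtx3l, at 28.6% and 11.1% of 147 and 27 cells. In PBS microglia 0 members had enough positive cells (background 8.03%). Parp1 had too few positive cells to be counted in these classes, except in the monocyte/macrophage class of PBS. There it was found in 6.37% and 4.37% (ratio 1.46), also just under the limit, and at 500 UMIs it had too few positive cells.

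**Figure D4:**
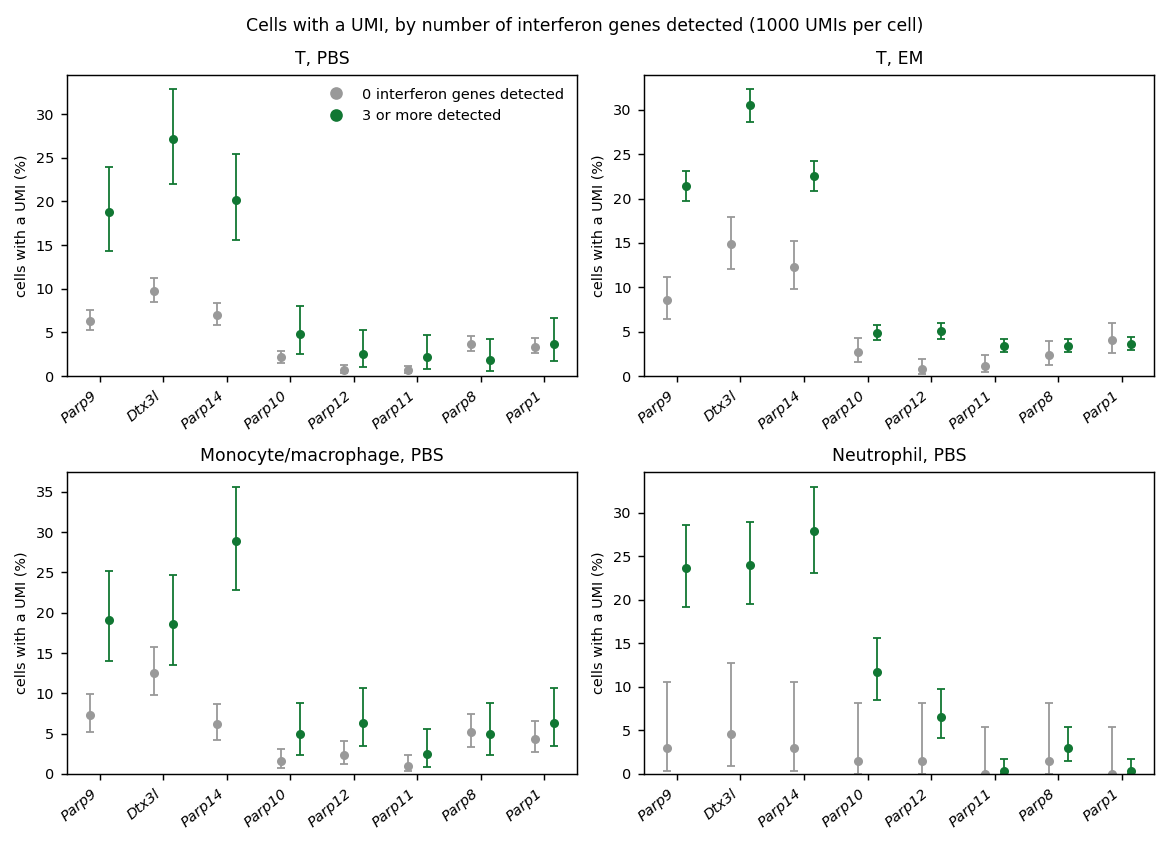
Percent of cells with at least 1 UMI of each gene among cells with 0 (grey) and with 3 or more (green) detected type I interferon genes, all thinned to 1000 UMIs; bars are 95% Clopper-Pearson intervals. Parp9, Dtx3l and Parp14 are higher in green in all 4 panels, Dtx3l with overlapping intervals in the monocyte/macrophage class, whereas for Parp1 the intervals overlap.

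Some members were found more often in T cells with another member than in T cells without it. In thinned T cells of the EM library, Dtx3l was found in 32.1% (28.9 to 35.4%) of the 813 cells with Parp9 and 22.3% (21.1 to 23.6%) of the 4197 without, and in 29.4% of the 849 cells with Parp14 and 22.8% of those without. Beside Parp1, it was found in 20.6% (15.4 to 26.6%) of 214 cells with and 24.0% of cells without. In PBS, Dtx3l was found in 16.8% of the 345 T cells with Parp9 and 12.4% of the 3672 without, with overlapping intervals. Parp14 was found in 13.6% (10.2 to 17.7%) of PBS T cells with Parp9 and 8.63% (7.74 to 9.59%) of those without. Other classes did not all follow: in EM, Dtx3l was found in 14.3% of NK cells with Parp9 and 15.6% without, and in 28.2% and 32.1% of monocyte/macrophage cells, with overlapping intervals in both classes. In PBS monocyte/macrophage cells, however, Parp14 was found in 19.3% (13.2 to 26.7%) with Parp9 and 9.85% (8.29 to 11.6%) without. Intervals of the other member pairs measured outside T cells overlapped. Since the strand setting of the counting is not known, reads from the exon overlap of Parp9 and Dtx3l could be counted for either gene, and their part in this pair was not tested.

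The type I interferon list itself was higher in EM: 21 of 23 genes measured in T cells, 18 of 21 in NK cells, 23 of 23 in the monocyte/macrophage class, 12 of 23 in microglia and 20 of 23 in dendritic cells, with 0 lower in each. Of all genes, 5.15%, 5.34%, 8.41%, 7.71% and 6.77% were higher in these classes, in the same order. In T cells the extremes were Ifi44 (20 and 507 UMIs, 0.93 and 39.5 CPM, log2 ratio 5.41) and Oas2 (4.69), and at the low end Ifit2 (29.6 and 50.4 CPM, 0.77). In the monocyte/macrophage class they were the exonuclease Isg20 (6.81 and 462 CPM, 6.08) and Ifit3b (5.48), and at the low end Irf9 (60.9 and 161 CPM, 1.40). The list's median was 2.78 in T cells and 3.28 in the monocyte/macrophage class, against 0.95 and 1.52 for the members.

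Of 9 other genes of the PARP family, 0 were higher in T cells and 1 in the monocyte/macrophage class, with 0 lower in either. Of all genes, 5.15% and 8.41% were higher in these classes and 11.5% and 25.0% lower. The 1 higher gene was Zc3hav1, an antiviral RNA-binding protein, at 107 and 342 CPM (log2 ratio 1.68, 1.49 to 1.86). In T cells Zc3hav1 was at 387 and 416 CPM (0.10). The other extremes in T cells were Parp3 (0.67) and Tiparp (0.64) above and Parp16 (-0.41) and Tnks (-0.08) below. Monocyte/macrophage cells had Parp16 (0.62, from 4 EM UMIs) above and Tiparp (-0.84) and Tnks2 (-0.56) below.

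Genes that make or consume NAD+, the substrate of the family, were lower in EM in 4 of 13 cases in T cells. In the monocyte/macrophage class 3 of 10 were lower, and 0 were higher in either class. These counts are read beside the 11.5% and 25.0% of all genes that were lower and the 5.15% and 8.41% higher. Cd38, an NAD+-consuming ectoenzyme, was at 320 and 31.7 CPM in the monocyte/macrophage class (log2 ratio -3.33, -3.94 to -2.79), and Nmnat3 had a log2 ratio of -2.50 from 3 EM UMIs. At the upper end were Nadk (0.94) and Sirt1 (0.79). In T cells Bst1 (-2.99) and Nmnat2 (-1.75) were lowest and Sirt1 (1.00) and Nampt, the rate-limiting enzyme of NAD+ salvage (75.3 and 136 CPM, 0.85), highest.

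Counts of genes that read or remove ADP-ribose, and of Parp1 repair partners, are read beside the shares of all genes. Those shares were 5.15% higher and 11.5% lower in T cells, and 8.41% and 25.0% in the monocyte/macrophage class. In T cells 0 of 11 were higher and 1 lower, Macrod2 (-1.02), with Dtx4 at -0.89 and with Dtx1 (0.92) and Adprh (0.61) highest. Among monocyte/macrophage cells 1 of 10 was higher, Macrod2 (1.07), and 1 lower, Adprhl2 (-2.77, -8.09 to -0.27, from 1 EM UMI), with Dtx3 at -0.66 and Adprh, which removes ADP-ribose from arginine, at 0.78. Repair partners of Parp1 passed the limit in 0 of 10 cases in T cells, where Polb (0.46) was highest and Lig3 (-0.59) and Xrcc5 (-0.43) lowest. Among monocyte/macrophage cells 3 of 10 were higher (8.41% of all genes) and 2 lower (25.0% of all genes): Timeless (1.57) was highest, followed by Polb (1.15, 0.61 to 1.65) and Xrcc5 (1.15, -0.04 to 2.16, from 9 EM UMIs), and Xrcc1 (-1.14) and Chd1l (-1.03) lowest.

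Finally, the genes most like each member were ranked by Pearson's r over 15 points, 1 for each class and library with at least 50 cells, among 6624 genes. The points share libraries and differ in depth, so r is a description. Parp9 was most like Oasl2 (r = 0.85), Ifit3 (0.83), Ifi27l2a (0.81), Herc6 (0.81) and Slfn5 (0.81), of which Oasl2 and Ifit3 are on the type I interferon list. Dtx3l followed Chmp4b (0.95), Oas3 (0.88), Isg15 (0.88), Ifit1 (0.86) and Xaf1 (0.85). Parp14 followed Slfn8 (0.82), Cmpk2 (0.78), Azin1 (0.78), Rnf114 (0.78) and Bcl3 (0.77).

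Parp12 followed Rhog (0.96), Ifitm3 (0.95), Brk1 (0.91), Anxa4 (0.90) and Oas1a (0.90). Parp10 followed Noct (0.90), Slc9a3r1 (0.84), Il1rap (0.83), Klhl2 (0.83) and Gadd45a (0.83). For Parp11 the genes were Cldnd1 (0.88), Arl5c (0.87), Ap3b1 (0.85), Ly6e (0.83) and Anxa7 (0.82), and for Parp8 they were Zc3h7a (0.90), Scaf4 (0.86), Jarid2 (0.81) and Mob3b (0.81). Parp1 followed Bccip (0.93), Zfp706 (0.93), Wdr61 (0.92), Hibadh (0.91) and Dnajc11 (0.91). Between members, r was 0.73 for Parp9 with Dtx3l, 0.67 for Dtx3l with Parp12, 0.54 for Dtx3l with Parp14 and 0.06 for Parp14 with Parp12. Parp10 had r of -0.82 with Parp1 and -0.52 with Parp11, whereas Parp11 and Parp1 had r of 0.68. PBS neutrophils held the highest Parp10 level (116 CPM) and the lowest Parp1 level (4.46 CPM) of the points, and r without them is not given.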

How the data were processed

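The authors deposited 1 matrix of raw UMI counts per library, not normalized, as its whole-number values show. The submitters' processing notes name CASAVA 1.8, STARsolo and mm10, and the annotation, the strand setting and how cells were called are not given in the sources used. Depth was 45043934 UMIs in 8333 barcodes (PBS) and 19385631 in 8039 (EM).

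Cells with at least 500 UMIs, 200 genes and at most 20% mitochondrial UMIs were kept, and no doublet caller was run. Each cell took the class with the most detected markers, with at least 3 and a lead of at least 1. The gate, the T subsets, the dendritic subsets, the Ccr2 and Mrc1 split and the lead-of-2 alternative were set after seeing the data. Members and lists were chosen with earlier results of these data known. UMIs were summed per class and library. Log2 ratios carry no pseudocount and exact conditional binomial intervals, CPM exact Poisson intervals, and shares exact Clopper-Pearson intervals (95%). Named are all 8 members, the 2 highest and 2 lowest genes of each list with at least 20 UMIs in T and monocyte/macrophage cells, and the 5 genes most like each member, on log2(CPM + 1), of a mean of at least 20 CPM; some genes that this rule takes are not reported here, and other names (Mrc1, Arg1, Ly6c2, Ccr2) were chosen after their values were seen. In GENCODE (GRCm38) 31107 of 31253 genes were found. The calculation was checked on simulated data, with Python 3.11.15, numpy 2.4.6 and scipy 1.17.1.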

Additional observations from a re-analysis of the deposited data

Results flagged for a closer look

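Parp14 and Parp8 had log2 ratios past 1 in opposite directions in different classes; the difference between classes was not tested, since each class comes from the same 2 libraries. Parp14 was at 1.66 in the monocyte/macrophage class and 1.56 in dendritic cells but at -1.01 in microglia (28 EM UMIs). Parp8 was at 1.09 in dendritic cells and -2.16 in microglia, where EM gave 4 UMIs.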

How the results depend on the processing

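No log2 ratio past 1 changed sign under the alternatives run. Shares of all genes past the limit are given for the main setting only, so the counts below have no background beside them. The count of members higher in T cells was 5 with cells thinned to 1000 UMIs and 5 with median-of-ratios scaling. In NK cells it was 0 with a lead of 2 markers, thinned, without the 5% of cells with the most UMIs, or with at least 50 UMIs. In microglia the higher count was 1 without those 5%, with equal weight per cell, or with at least 50 UMIs, and the lower count 1 with stricter cell limits or thinned. In dendritic cells the higher count was 3 thinned or with equal weight. Parp1 in T cells moved to 1.79 under a stricter gate (30 UMIs, 69 PBS cells) and to 0.70 without those 5%, and in NK cells to -0.10 thinned. In the monocyte/macrophage class Parp1 was at 1.00 with equal weight, -0.32 in Ccr2 cells and 1.49 in Mrc1 cells. Of the member levels, 2 of 16 under the stricter gate and 50 of 80 thinned stayed inside their counting interval. The stricter gate left at least 50 cells per library in T cells only, so it gave no value elsewhere. The cause of these shifts was not tested. No paired analysis was possible because each group holds 1 library and leaves none to take out. The depth of EM microglia and monocyte/macrophage cells limits Parp8, Parp10 and Parp11 there.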
